A study of Drosophila melanogaster with 27 samples.

Results

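The maternal mRNA *bcd* and the mRNAs of 3 proteins that localize it, *exu*, *swa* and *stau*, were followed through 27 libraries of early *Drosophila* embryos. They were taken by symbol and FlyBase identifier (*bcd* FBgn0000166, *exu* FBgn0000615, *swa* FBgn0003655, *stau* FBgn0003520) and are 4 of the 17714 genes in the tables. All 4 passed the filter on low counts in both experiments.

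*bcd* encodes the homeodomain protein Bicoid, the anterior determinant. *bcd* mRNA is made in the nurse cells, carried into the oocyte and held there at the anterior pole. In the early embryo Bicoid is translated from it into a gradient. Exuperantia (*exu*) is needed for the first steps of that transport, Swallow (*swa*) for keeping the mRNA at the anterior cortex late in oogenesis, and Staufen (*stau*), a double-stranded RNA binding protein, for anchoring *bcd* mRNA in the egg and for bringing *osk* mRNA to the posterior pole. Nanos (Nos) works with Pumilio at the other end of the embryo, where it represses maternal *hb* mRNA, and it can repress *bcd* mRNA where it is misexpressed at the anterior.

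The study asked which maternal mRNAs Nos regulates, by fusing it to Upf1, a factor of nonsense-mediated decay, and by removing maternal *nos*. One experiment measured embryos hand-sorted by their nuclei at cycle 9 (the study's methods give nuclear cycles 9 to 10), with 3 libraries for each of 5 genotypes: wild type (w1118), and embryos of females in which the maternal alpha-tubulin GAL4-VP16 driver, active in the germ line during oogenesis, expressed Upf1, Nos, Upf1-Nos or Upf1-NosL7, a fusion whose Nos lacks part of its C-terminal tail. Every transgene carried the 3′ UTR of *nos*, the embryos were fixed in methanol before sorting, and the Upf1-Nos embryos, whose nuclei were abnormally spaced, were picked by eye as being of about the same age. The other experiment measured unsorted collections at 0 to 1 hour and 2 to 3 hours of wild type and of embryos from *nos*BN/Df(3R)Exel6183 females (*nos*-), with 3 libraries per group. Levels are given as TPM, an abundance corrected for mRNA length and library size, and changes as log2 fold changes with their SE from the counts. A gene was called in a comparison with an adjusted p below 0.05 together with a change above 2-fold in sorted embryos and between stages, or a log2 change beyond 0.5 in *nos*- embryos.

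Library depth ranged from 14022879 to 22002028 counts for the sorted embryos and from 15253031 to 21661085 for the unsorted ones. *nos* mRNA, removed maternally in *nos*-, was at 0.12, 0.3 and 0.43 TPM at 0 to 1 hour against 381 to 409 in wild type, and at 0.87 to 1.28 TPM against 31 to 42 at 2 to 3 hours. *Upf1* mRNA was at 88.7, 131 and 200.3 TPM in Upf1 embryos against 7.05 to 15.3 in wild type. In the other 3 transgenic groups neither targeted gene was called higher than in wild type: *nos* was at 198 to 204 TPM in Nos, 108 to 141 in Upf1-NosL7 and 31.7 to 36.4 in Upf1-Nos against 158 to 199.5 in wild type, and *Upf1* was at 4.59 to 8.2 TPM in Upf1-Nos, 10.4 to 14.1 in Upf1-NosL7 and 12.4 to 14 in Nos, so the tables give no check of these 3 transgenes. Follicle cell markers were near 0 throughout (summed level of 11 eggshell genes at most 1.9 TPM in any library).

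All 4 mRNAs were maternal, and their levels were far apart at the start. In wild type at 0 to 1 hour *exu* averaged 576 ± 36 TPM (SD, n = 3), *swa* 347 ± 40.5, *bcd* 123 ± 7.84 and *stau* 81 ± 14.8. *exu* was thus 209th from the top among the 8445 genes tested in unsorted embryos, *swa* 380th, *bcd* 1408th and *stau* 2433rd. In sorted wild type at cycle 9 *swa* averaged 389.7 ± 49.2 TPM, *exu* 235 ± 43.5, *bcd* 114 ± 26.8 and *stau* 32.7 ± 14.8. *stau* varied most among these 3 libraries, at 21.8, 26.8 and 49.5 TPM.

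**Figure D1:**
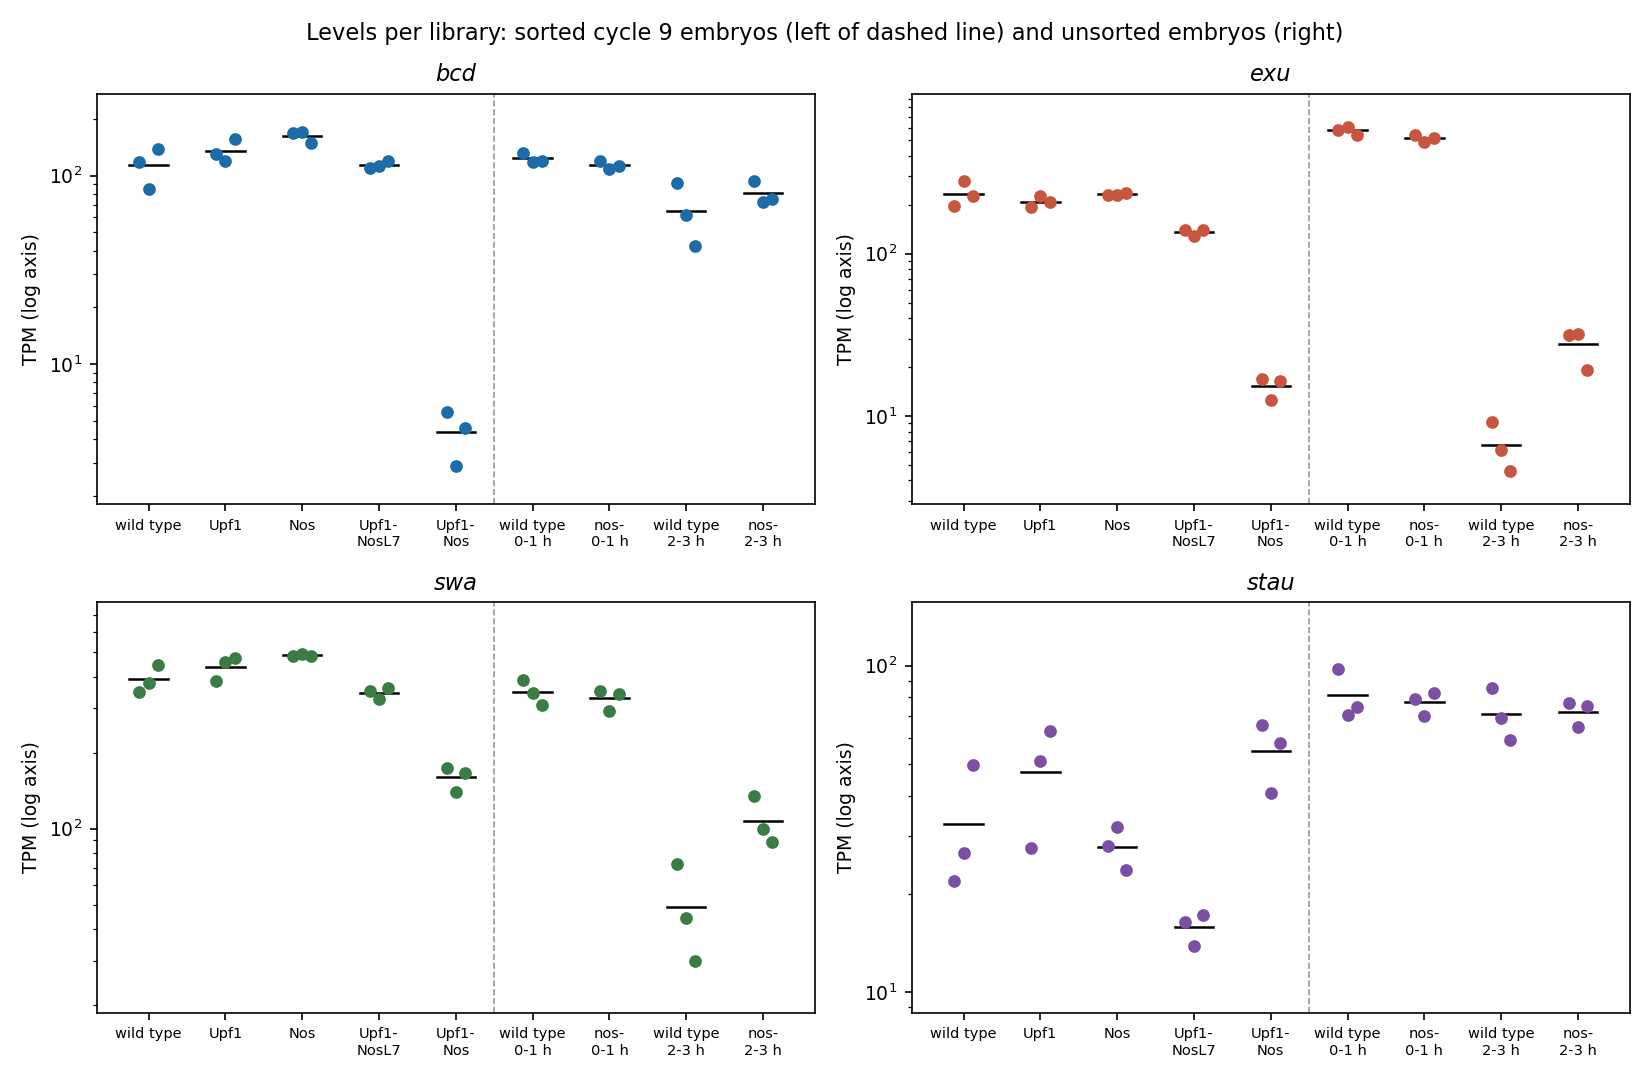
TPM of *bcd*, *exu*, *swa* and *stau* in each library (points, log axis) with the mean of the 3 libraries of each group (bars); sorted embryos stand left of the dashed line and unsorted ones right of it. The Upf1-Nos libraries lie below all other sorted libraries for *bcd*, *exu* and *swa* and not for *stau*, and *exu* and *swa* are lower at 2 to 3 hours than at 0 to 1 hour.

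Upf1-Nos embryos had lost nearly all *bcd* mRNA. It was at 5.58, 2.89 and 4.57 TPM in the 3 Upf1-Nos libraries against 118, 84.9 and 138 TPM in wild type. Every Upf1-Nos library was far below every wild-type library, and the same held against the other 3 transgenic genotypes, whose 9 libraries lay between 109 and 170.1 TPM. The fitted change was −5.09 (SE 0.227) on the log2 scale, 34-fold lower, with an adjusted p of 3.65e-11 by edgeR's quasi-likelihood test, and *bcd* was 211th from the bottom of 6857 genes ordered by this change. In this comparison 39.3% of genes tested were called lower and 1.05% higher, so a fall by itself was common. Each library pooled embryos, so that fewer embryos with the mRNA and less mRNA in each cannot be told apart from these values. By in situ hybridization the study saw no detectable *bcd* mRNA in Upf1-Nos embryos judged to be at about this age. Most Upf1-Nos embryos that were unfertilized or only starting nuclear division still had a normal level. The study saw normal levels in Upf1-NosL7 embryos of about this age.

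Of the 5 annotated forms of *bcd* mRNA, 4 were called lower. The gene, on the minus strand of chromosome 3R (3R:6755842-6759466, build BDGP6.54), has 5 annotated isoforms that share a 3′ UTR of 834 nt. The main isoform, *bcd*-RD, has a coding region of 489 codons and was at 68, 45.8 and 84.8 TPM in wild type and at 2.77, 1.71 and 1.84 TPM in Upf1-Nos, with a log2 change of −5.31 (SE 0.235, adjusted p 8.83e-10). *bcd*-RG fell by 5.11, *bcd*-RF by 4.54 and *bcd*-RA by 4.48 on the log2 scale, each with an adjusted p at or below 2.99e-04 in the edgeR fit of isoforms, in which 33% of isoforms were called lower and 2.8% higher. *bcd*-RE was at 0 in every Upf1-Nos library and at 0 in 2 of the 3 wild-type libraries, and was not called (adjusted p 0.0572). How reads divide between the 5 isoforms is an estimate of the quantification.

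*bcd*-RA, which has 2 exons in place of 4 and a coding region of 149 codons, took different shares of *bcd* TPM in the 2 experiments. It made up 19.2% ± 5.99 in sorted wild type and 28.4% ± 5.67 in Upf1-Nos, against 3.62% ± 2.52 in unsorted wild type at 0 to 1 hour and 3.33% ± 1.26 at 2 to 3 hours (SD, n = 3 each). The lowest sorted wild-type library, at 13%, was above every unsorted library. These shares rest on the estimated division of reads between isoforms. *bcd*-RA had few expected counts, 16.85 to 27.27 per Upf1-Nos library and 9.09 to 126.5 per unsorted library. The experiments differ in fixation and sorting as well as in age, which cannot be told apart here.

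*exu* mRNA fell next most among the 4, and unequally across its isoforms. Gene-level *exu* was at 16.8, 12.6 and 16.4 TPM in Upf1-Nos against 196, 282 and 227 in wild type, with no overlap, and changed by −3.98 (SE 0.162) on the log2 scale, 15.8-fold lower (adjusted p 1.68e-11). The gene (2R:20667427-20671083, minus strand) has 4 annotated isoforms with 1 coding region of 532 codons and 2 lengths of 3′ UTR, 248 nt in *exu*-RA and *exu*-RB and 881 nt in *exu*-RC and *exu*-RD.

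The isoforms with the short 3′ UTR were almost gone, while the summed level of those with the long one was not lower. *exu*-RA and *exu*-RB together were at 5.43, 4.75 and 4.09 TPM in Upf1-Nos against 191, 277 and 221 in wild type. *exu*-RC and *exu*-RD together were at 11.4, 7.82 and 12.3 TPM in Upf1-Nos against 4.96, 4.91 and 6.73 in wild type. The short form thus fell from 97.6% ± 0.617 of *exu* TPM in wild type to 31.7% ± 6.46 in Upf1-Nos, and the long form stood higher in Upf1-Nos than in wild type in every library, also after the scaling used for the test (13.8 to 22 against 11.47 to 13.4 in scaled CPM, counts relative to the scaled library size). On that scale the long form was also above every wild-type library in Upf1 (15.3 to 16) and in Upf1-NosL7 (15.3 to 24.8), and below in Nos (6.62 to 9.79), so a level above wild type was not particular to Upf1-Nos.

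In the isoform fit *exu*-RB, the main form, changed by −6.02 (SE 0.222, adjusted p 2.94e-10) on the log2 scale and *exu*-RA by −5.44 (SE 0.453). Of the long forms, *exu*-RD fell by 5.21 and *exu*-RC, which was at 0 in 2 of the 3 wild-type libraries and at 7.69 to 12.3 TPM in Upf1-Nos, was not called (log2 change 4.63, SE 2.40, adjusted p 0.139). *exu*-RC and *exu*-RD share their 3′ UTR and coding region, and how reads divide between them is an estimate of the quantification, which is why their sum is given, without a test. The exons that *exu* shares with its neighbour *galla-1*, on the other strand, lie in *exu*-RA and *exu*-RD outside the 3′ UTR and not in *exu*-RB or *exu*-RC.

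**Figure D2:**
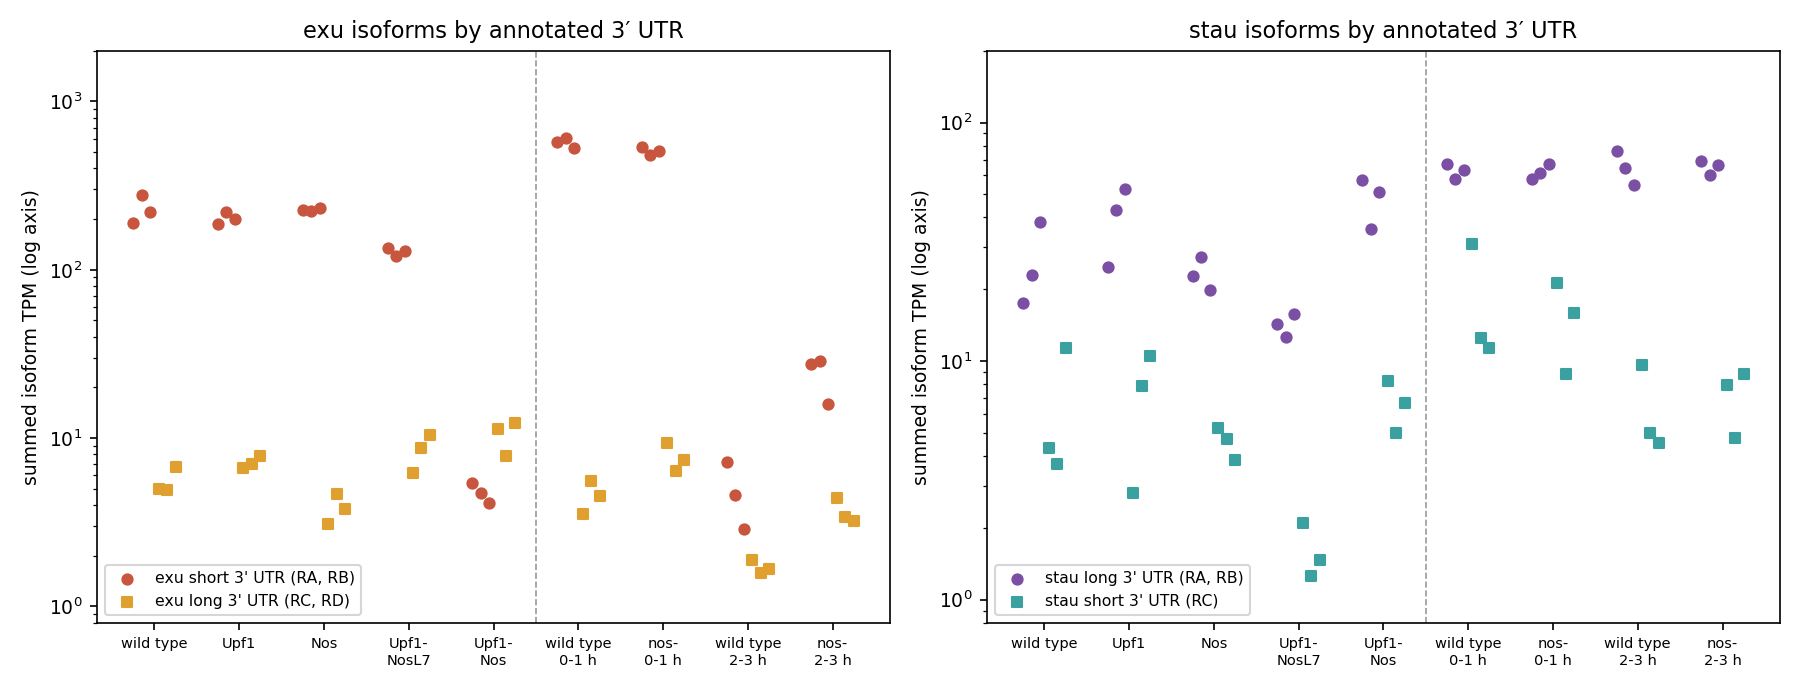
Summed TPM of the *exu* (left) and *stau* (right) isoforms with the short and the long annotated 3′ UTR in each library (points, log axis), in the same 9 groups with sorted embryos left of the dashed line. In Upf1-Nos the *exu* forms with the short 3′ UTR sit at 4.09 to 5.43 TPM, under those with the long one at 7.82 to 12.3, whereas in every other sorted library the short form is at 120.6 TPM or more.

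*swa* mRNA was lowered much less. It was at 174, 140 and 167 TPM in Upf1-Nos against 348, 378 and 444 in wild type, again without overlap. The fitted log2 change was −1.60 (SE 0.0894, adjusted p 3.67e-10), 3.02-fold lower, while the median over all genes tested was −0.51. With TMM factors alone, that is without the factors from 20 control genes that raise the library sizes of Upf1-Nos, the *swa* change was −1.03, still called, and the median over all genes moved by 0.57 to 0.05. *swa* (X:6363418-6365708, minus strand) has 1 annotated isoform, with a coding region of 548 codons and a 3′ UTR of 263 nt.

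*stau* mRNA was not lowered in Upf1-Nos. It was at 65.9, 40.7 and 58 TPM against 21.8, 26.8 and 49.5 in wild type, and the highest wild-type library lay above the lowest Upf1-Nos library. The log2 change of 0.48 (SE 0.252) was not called (adjusted p 0.106), but it was called with TMM factors alone (1.03), with RLE factors (1.05) and with DESeq2 (1.05). *stau* (2R:18117896-18125779, minus strand) has 3 annotated isoforms, of which *stau*-RA and *stau*-RB carry a 3′ UTR of 1885 nt and *stau*-RC one of 157 nt. *stau*-RB, which has the shorter coding region (914 codons against 1026), rose by 1.05 on the log2 scale (SE 0.283, adjusted p 0.00732), with 6.55, 7.09 and 19.2 TPM in wild type and 33.6, 21.1 and 28.4 in Upf1-Nos, while *stau*-RA (0.08) and *stau*-RC (−0.24) were not called. How reads divide between *stau*-RA and *stau*-RB is an estimate of the quantification. Their summed level overlapped between the groups, at 35.7 to 57.6 TPM in Upf1-Nos and 17.5 to 38.2 in wild type.

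**Figure D3:**
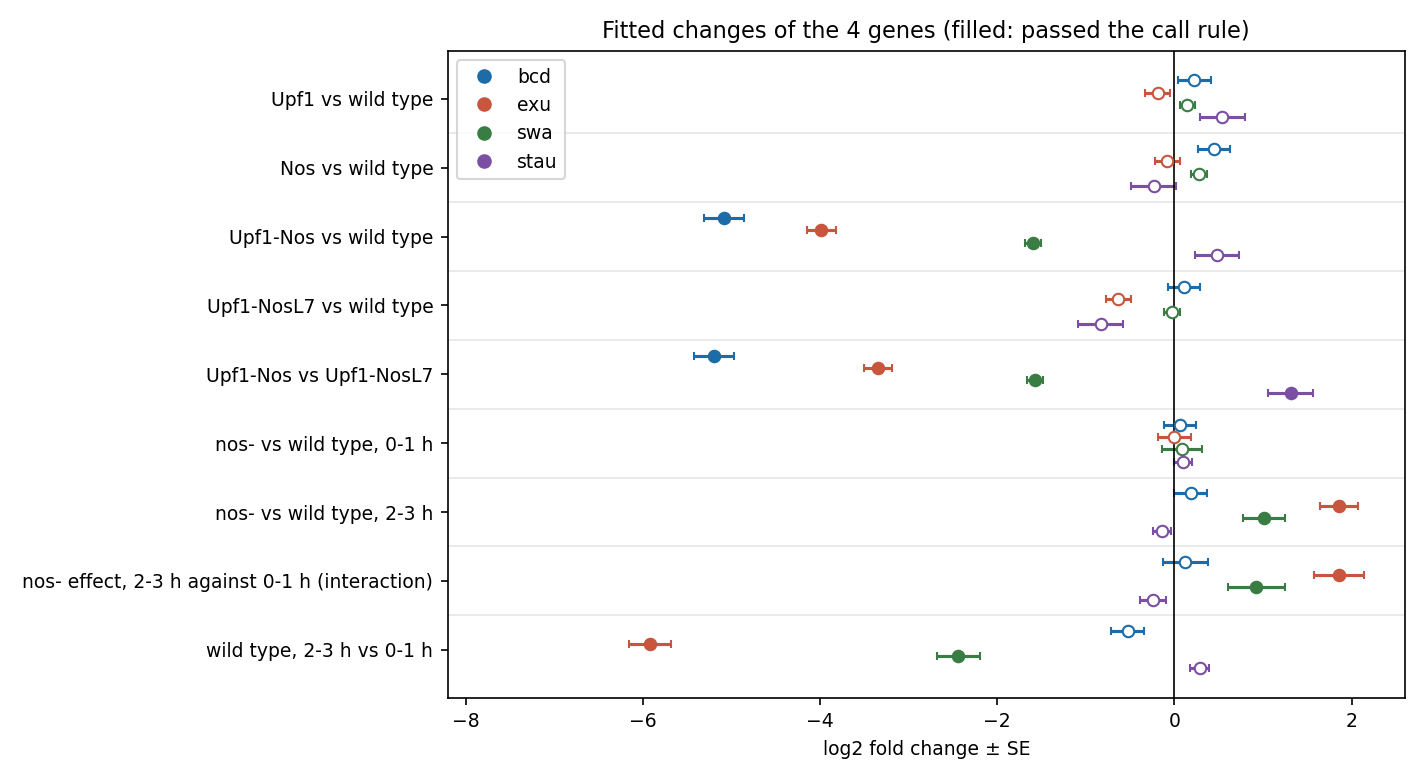
Fitted log2 fold change with its SE (horizontal axis) of each gene in the 9 comparisons (vertical axis); filled points passed the call rule. *bcd*, *exu* and *swa* are called lower in both comparisons of Upf1-Nos, *stau* is called higher against Upf1-NosL7, and only *exu* and *swa* are called in *nos*- at 2 to 3 hours.

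The fusion with the shortened Nos served as the control for recruitment that needs the tail of Nos, as does joint binding with Pumilio. In the study's yeast assays the protein Bruno could still recruit the shortened Nos to RNA. Against Upf1-NosL7, the log2 change in Upf1-Nos was −5.196 for *bcd*, −3.35 for *exu* and −1.57 for *swa*, with an adjusted p of at most 5.04e-10, in a comparison in which 37.8% of genes were called lower and 4.07% higher. *stau* was called higher, by 1.31 on the log2 scale (SE 0.257, adjusted p 3.67e-04), 2.48-fold, with Upf1-NosL7 at 16.4, 13.9 and 17.2 TPM, under every Upf1-Nos library. This comparison shares the Upf1-Nos libraries with that against wild type. Of the *stau* isoforms, *stau*-RB (1.38, SE 0.286) and *stau*-RC (1.48, SE 0.422) were called higher, as were 3.79% of all isoforms, and *stau*-RA (0.96) was not.

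None of the 4 genes was called in the 3 control genotypes, where 4.03% (Upf1), 5.6% (Nos) and 2.74% (Upf1-NosL7) of genes tested were called. In Upf1-NosL7 *bcd*, at 109, 112 and 119 TPM, lay within the wild-type range (log2 change 0.11, SE 0.185, adjusted p 0.704), as did *swa* but for the lowest library (−0.03). *exu* and *stau* in Upf1-NosL7 were below wild type by less than the 2-fold limit. *exu* was at 140, 129 and 139 TPM, below every wild-type library (log2 change −0.63, SE 0.143, adjusted p 0.00915), and *stau* likewise (−0.83, SE 0.255, adjusted p 0.0419). Without wild-type replicate 1 the *stau* value was −1.01 and was called. Its isoform *stau*-RC was called lower in Upf1-NosL7, at 2.09, 1.26 and 1.46 TPM against 4.32, 3.7 and 11.3 in wild type (log2 change −1.72, SE 0.424, adjusted p 0.0337), where 1.11% of isoforms were called lower.

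In Nos embryos *bcd* was at 168, 170.1 and 148 TPM, above every wild-type library, with a log2 change of 0.45 (SE 0.185) that was not called (adjusted p 0.109). *swa* in Nos was at 481, 493 and 484 TPM, also above every wild-type library, with a log2 change of 0.28 (adjusted p 0.0402), under the 2-fold limit. *exu* (−0.08) and *stau* (−0.24) overlapped wild type.

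Upf1 alone gave *bcd* at 130, 120 and 156 TPM and *exu* at 193, 227 and 207. *swa* was at 382, 455 and 472 TPM and *stau* at 27.7, 50.9 and 63. All 4 overlapped wild type in TPM, with log2 changes between −0.19 for *exu* and 0.54 for *stau* (SE 0.252, adjusted p 0.17). Ordered by mean TPM, *bcd* ran from Nos through Upf1, wild type and Upf1-NosL7 to Upf1-Nos, and only the last step was free of overlap. *swa* kept the same order, with Nos also apart from Upf1. *exu* ran from wild type and Nos, which overlapped, to Upf1, Upf1-NosL7 and Upf1-Nos, each apart from the next. *stau* ran from Upf1-Nos through Upf1, wild type and Nos, each overlapping the next, to Upf1-NosL7, which stood apart. In scaled CPM parts of these orders differed. The *stau* mean was higher in Upf1 than in Upf1-Nos (194.9 against 187.2). For *bcd* Nos stood apart from Upf1, and the mean of Upf1-NosL7 was above wild type. For *exu* Nos overlapped Upf1. *swa* in Upf1, at 687 to 750, was above every wild-type library, at 622 to 664.

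Some mRNAs of the machinery that carries and anchors *bcd* mRNA fell in Upf1-Nos and others were not called. Of 14 listed transport and anchoring genes, all tested, 8 were called lower and none higher (39.3% of all genes were called lower), with a median log2 change of −1.52 against −0.51 over all genes. The strongest were the maternal tubulins, *alphaTub67C* (−4.84, SE 0.163), from 310 to 435 TPM in wild type to 13.3 to 18.7, and *gammaTub37C* (−3.68, SE 0.187), from 77.2 to 102 TPM to 6.29 to 10. The dynein heavy chain gene *Dhc64C* (−3.28), the dynein adaptor gene *egl* (−2.75), the gamma-tubulin complex gene *Grip128* (−2.67), the microtubule regulator gene *msps* (−2.03) and the ESCRT-II genes *Vps36* (−3.26) and *Vps25* (−1.01) fell as well. *Grip75* of the same gamma-tubulin complex (0.14), the dynein light chain gene *ctp* (0.13), *BicD* (−0.49), the third ESCRT-II gene *lsn* (−0.31), *par-1* (−0.32) and *rump* (0.44) were not called. The list held no called gene in Upf1, Nos or Upf1-NosL7, where 4.03%, 5.6% and 2.74% of all genes were called, so that few or none would be called among 14 genes at those shares.

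The list for *bcd* mRNA translation and stability held 11 genes, whose action on *bcd* mRNA itself was not tested. Their median log2 change in Upf1-Nos was −1.10 against −0.51 over all genes. Of the 11, 7 were called lower in Upf1-Nos and none higher, against 39.3% of all genes called lower. They were *orb* (−4.36, SE 0.268), the CPEB homologue, *nos* itself (−2.74), *bin3* (−2.18), the deadenylase genes *twin* (−2.10) and *pop2* (−1.01), the cap-binding repressor gene *eIF4EHP* (−1.98) and *cup* (−1.10). *pum*, the partner of *nos*, was not called (0.47, SE 0.369) but was called lower in Nos (−1.31, adjusted p 0.0263, with 2.87% of all genes called lower) and in Upf1-NosL7 (−1.42, adjusted p 0.0232, with 1.75%), where it was at 5.94 to 13.2 and 6.65 to 8.14 TPM against 11.8 to 39 in wild type. Its wild-type libraries overlapped those of Nos.

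**Figure D4:**
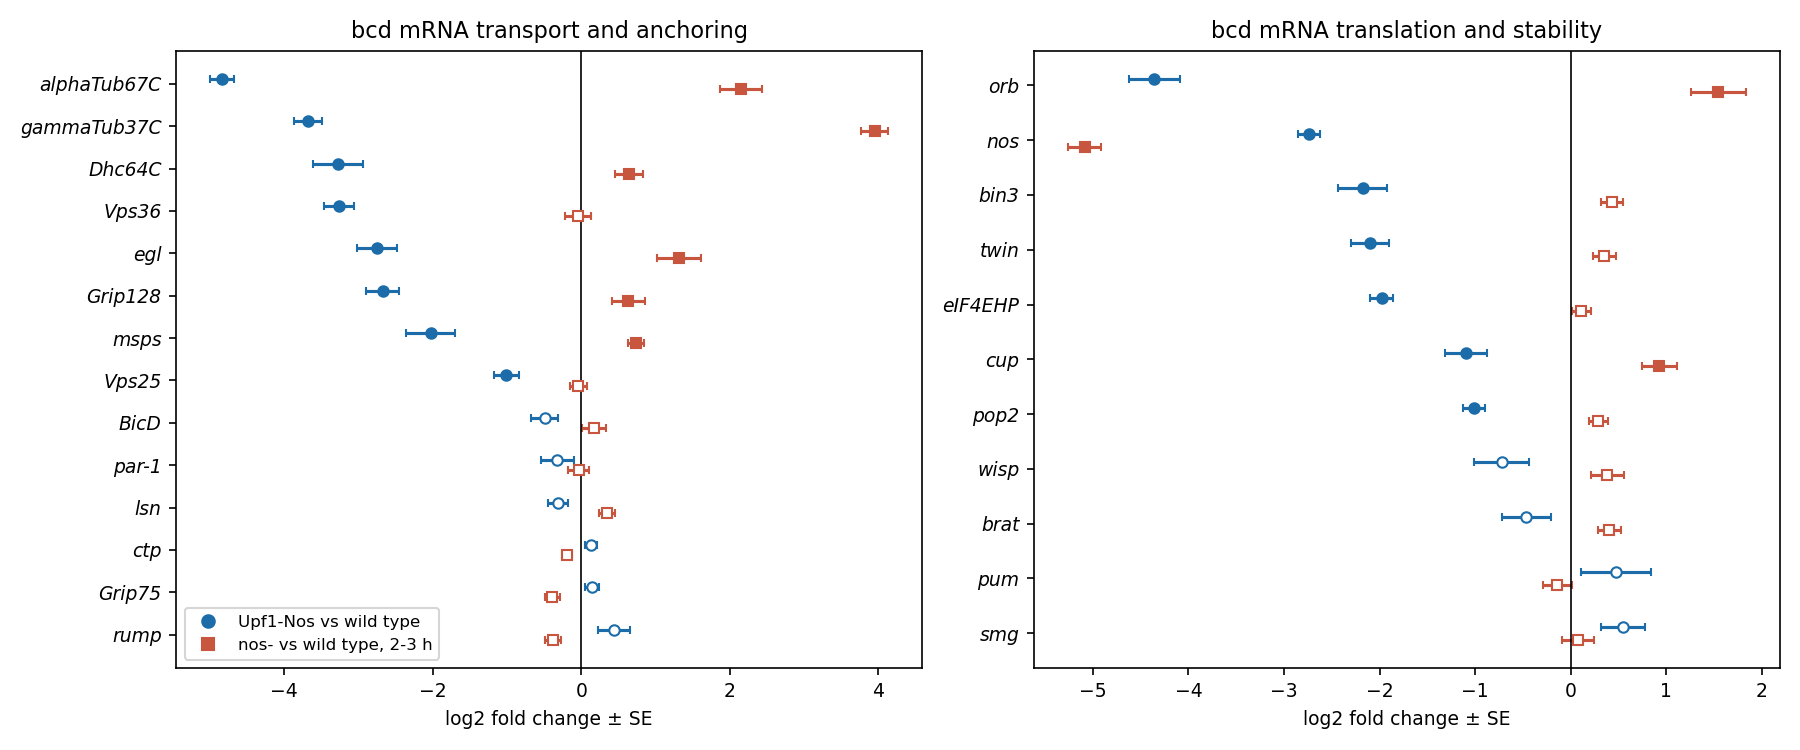
Log2 fold change with its SE (horizontal axis) of the listed genes of *bcd* mRNA transport and anchoring (left) and of *bcd* mRNA translation and stability (right), for Upf1-Nos against wild type (circles) and *nos*- against wild type at 2 to 3 hours (squares); filled symbols were called. Genes are ordered by their change in Upf1-Nos, from *alphaTub67C* at −4.84 and *orb* at −4.36 upward, and of the genes called at 2 to 3 hours *nos* alone is lower.

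*stau* acts on *osk* mRNA as well as on *bcd* mRNA. *osk*, the posterior determinant, was at 8.6 to 17.7 TPM in Upf1-Nos against 226 to 331 in wild type (log2 change −4.57, SE 0.21, adjusted p 4.86e-11). Of 14 tested of 16 genes listed for *osk* mRNA localization and as partners of *stau*, 6 were called lower and none higher, a share close to the 39.3% of all genes called lower, with *BicC* (−5.44, SE 0.281), which encodes a KH-domain RNA-binding protein, the strongest. The exon junction genes *mago*, *tsu*, *eIF4AIII* and *RnpS1* lay between −0.18 and 0.36 and were not called. The list's median was −0.44 against −0.51 over all genes.

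A further list held 13 zygotic genes, listed as activated by Bicoid in the anterior. Only *hb* and *cnc*, which are also deposited maternally, were high enough to be tested at cycle 9. Both fell in Upf1-Nos, with log2 changes of −7.04 (SE 0.226) for *hb* and −2.68 (SE 0.228) for *cnc*. *hb* was at 0.4 to 0.46 TPM in Upf1-Nos against 33.8 to 62.9 in wild type. First zygotic genes were low in both groups (wild type held 37.7 to 71.4 TPM over 13 such genes, Upf1-Nos 51.1 to 82.7, against 2567 to 2817 in unsorted wild type at 2 to 3 hours).

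Between the stages of unsorted wild type *exu* and *swa* mRNA were called lower and *bcd* and *stau* were not called. *exu* went from 582, 608 and 537 TPM at 0 to 1 hour to 9.12, 6.19 and 4.56 at 2 to 3 hours, a log2 change of −5.92 (SE 0.238, adjusted p 3.71e-09), the 28th lowest of 8445 genes. *swa* went from 388, 345 and 307 to 72.2, 44.4 and 29.8 TPM, a log2 change of −2.44 (SE 0.241, adjusted p 1.86e-06). Neither gene overlapped between the stages, in a comparison in which 25.4% of genes were called lower and 17.1% higher.

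*bcd* was at 132, 118 and 119 TPM at 0 to 1 hour and at 91.2, 61.4 and 42.3 at 2 to 3 hours, lower in all 3 libraries, but by less than the 2-fold limit (log2 change −0.53, SE 0.181, adjusted p 0.0188). *stau* overlapped between the stages, at 97.9, 70.4 and 74.8 TPM and at 85.4, 69.3 and 59.3 (log2 change 0.28, adjusted p 0.026, under the limit). Both values depended on the scaling. With factors from the 20 control genes, which moved the median of all genes by −0.83 on the log2 scale, *bcd* was at −1.34 and was called, and *stau* changed sign to −0.55, while *exu* and *swa* stayed called. Summed by 3′ UTR, without a test, the short form of *exu* went from 571 ± 35.7 to 4.91 ± 2.19 TPM and the long one from 4.55 ± 1.01 to 1.72 ± 0.158 TPM (SD, n = 3), so that the mean share of the long form in *exu* TPM was 0.789% at the first stage and 27.7% at the second. How reads divide between the long forms is an estimate of the quantification, and in that division they went opposite ways. *exu*-RD was called lower (log2 change −2.47, SE 0.417). *exu*-RC was at 0 in all 3 libraries of 0 to 1 hour and at 1.36, 0.9 and 0.99 TPM at 2 to 3 hours. It was called higher (adjusted p 9.87e-05 in the isoform fit), on 34.85 to 45.94 expected counts per library at 2 to 3 hours. In that fit 22% of isoforms were called lower and 15.3% higher. In the same fit *stau*-RB was called higher (1.48, SE 0.338) and *stau*-RC lower (−1.16, SE 0.450). The sum of *stau*-RA and *stau*-RB, without a test, was 62.7 ± 4.5 TPM at 0 to 1 hour and 65 ± 10.6 at 2 to 3 hours.

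None of the 4 genes was called in *nos*- at 0 to 1 hour. Their log2 changes were 0.06 (*bcd*, SE 0.18), −0.00081 (*exu*, SE 0.187), 0.09 (*swa*, SE 0.227) and 0.10 (*stau*, SE 0.104), and every range overlapped, while 17.7% of all genes were called. The 95% interval was widest for *swa*, from −0.36 to 0.53, and narrowest for *stau*, from −0.10 to 0.30. Of their isoforms *stau*-RB was called higher in *nos*-, at 14.8, 26.1 and 19.8 TPM against 9.35, 13.9 and 4.91 in wild type, without overlap (log2 change 1.24, SE 0.337, adjusted p 0.0344), in a fit in which 7.66% of isoforms were called higher. *stau*-RA and *stau*-RB share their 3′ UTR, and how reads divide between them is an estimate of the quantification. Their summed level, without a test, was 62.7 ± 4.5 TPM in wild type and 61.9 ± 4.5 in *nos*- (SD, n = 3).

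At 2 to 3 hours *exu* and *swa* mRNA were higher in *nos*- embryos and *bcd* and *stau* were not called. *exu* was at 31.8, 31.9 and 19.2 TPM in *nos*- against 9.12, 6.19 and 4.56 in wild type (log2 change 1.86, SE 0.212, adjusted p 7.15e-05). *swa* was at 135, 99.8 and 88.4 TPM against 72.2, 44.4 and 29.8 (1.01, SE 0.233, adjusted p 0.00512). All *nos*- libraries were above all wild-type libraries for both genes, in a comparison in which 27.4% of genes were called, 18.6% of them higher as a share of all tested.

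*bcd* in *nos*- at 2 to 3 hours was at 93.4, 72.7 and 75 TPM and overlapped wild type (log2 change 0.18, SE 0.181, adjusted p 0.433), and *stau* was at 76.6, 64.9 and 75 TPM (−0.14, SE 0.104, adjusted p 0.290). *exu*-RB, the main *exu* form, was called higher (2.29, SE 0.285, adjusted p 4.83e-04 in the isoform fit, in which 11.6% of isoforms were called higher). The summed long forms of *exu*, without a test, were higher too, at 3.2 to 4.38 TPM in *nos*- against 1.58 to 1.89 in wild type. At 0 to 1 hour they were at 6.35 to 9.38 TPM in *nos*- against 3.54 to 5.56. The summed short forms overlapped at that stage, at 479 to 534 TPM in *nos*- and 532 to 603 in wild type. The *nos*- collections differed from wild type in their first zygotic genes too, whose summed level was 1619 to 2263 TPM against 2567 to 2817, and in maternal and germ plasm RNAs (1358 to 1622 TPM against 753 to 1257, 5 genes with *nos* among them). The part of this in the *exu* and *swa* values was not tested.

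The difference between the stages was tested as an interaction, for which 33.2% of genes passed an adjusted p of 0.05. The effect of *nos*- on *exu* was larger at 2 to 3 hours than at 0 to 1 hour by 1.86 (SE 0.281, adjusted p 0.00162) on the log2 scale. For *swa* the difference was 0.93 (SE 0.324) with an adjusted p of 0.0474, and it was lost when any of 9 of the 12 libraries was left out (adjusted p up to 0.0989). It kept its call without wild-type replicate 1 or 3 or *nos*- replicate 3 of 2 to 3 hours, and with the replicate number as a block (0.94, adjusted p 0.00792). *bcd* (0.12) and *stau* (−0.24) did not pass.

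The listed *bcd* transport genes that were called in *nos*- at 2 to 3 hours were all higher, 6 of 14 against 18.6% of all genes (median 0.26 against 0.01 over all genes). *gammaTub37C*, at 49.5 to 68.6 TPM in *nos*- against 2.92 to 4.41 in wild type, rose most (log2 change 3.95, SE 0.181, adjusted p 2.66e-07), followed by *alphaTub67C* (2.15, SE 0.282). All 6 are among the 8 called lower in Upf1-Nos, where 39.3% of all genes were. The study reports that most maternal mRNAs stabilized without Nos at this stage were also depleted by Upf1-Nos. An overlap of this kind was thus not particular to the list. Among the regulators of translation and stability *orb* (1.54) and *cup* (0.93) rose and *nos* fell. In the *osk* list 6 of 16 rose, against 18.6% of all genes, led by *BicC* (3.05, SE 0.314) and *osk* (2.48, SE 0.315), and none was called lower. The median of that list was −0.04 against 0.01 over all genes.

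The zygotic genes listed as activated by Bicoid moved the other way with time. At 0 to 1 hour 9 of 13 were higher in *nos*- (10.9% of all genes were), led by *ems* (2.21, SE 0.307), at 1.59 to 4.01 TPM against 0.69 to 0.84, and *slp2* (1.85, SE 0.333). At 2 to 3 hours 4 were lower (8.8% of all genes were), led by *kni* (−1.58, SE 0.26) and *gt* (−1.21, SE 0.16), and *cnc* was higher (0.56). The study names *kni* and *gt* among the first zygotic genes that respond to the maternal gradients, without tying them to Bicoid. The libraries hold whole embryos, so changes in the anterior cannot be told from changes elsewhere. The study states that the fate map is altered without maternal Nos, as abdominal segmentation is suppressed. The summed first zygotic genes at 0 to 1 hour were at 236 to 367 TPM in *nos*- and 221 to 264 in wild type, and the part of embryo age in these values was not tested. Between the stages in wild type 11 of the 13 rose and 1, *cnc*, fell, against 17.1% and 25.4% of all genes. The genes were listed for being zygotic, so that rise was set by the list and is no result about it. Only 2 of the 13 passed the filter on low counts at cycle 9. The shares of all genes are thus no even background for this list, at 0 to 1 hour or between the stages.

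The genes most like each of the 4 were those with the smallest root mean square difference over 7 log2 fold changes (the 4 sorted genotypes against wild type, *nos*- against wild type at both stages, and the stages of wild type), among 6803 genes tested in both experiments. For *bcd* they were *Cmtr1* (0.25), *Papss* (0.27) and *Zfrp8* (0.29). For *exu* they were *CG14931* (0.17), *fs(1)M3* (0.31) and *mus301* (0.31), for *swa* *LPCAT* (0.09), *Dlic* (0.11), a dynein light intermediate chain gene, and *Ugalt* (0.14), and for *stau* *cno* (0.12), *l(3)L1231* (0.13) and *Cdk12* (0.14). Among the 4 genes the differences ran from 1.42 (*swa* and *stau*) to 3.00 (*exu* and *stau*), where the median difference to all genes tested was 1.84 for *bcd*, 2.71 for *exu*, 1.25 for *swa* and 0.74 for *stau*.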

How the data were processed

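Poly(A)-selected RNA of embryos was sequenced as paired ends, and strandedness is not given in the sources used here. The deposited expected counts and TPM values, for genes and isoforms, were made by the authors with STAR 2.5.3a and RSEM 1.3.0 (versions from the submitters' processing notes) on the Ensembl annotation of BDGP6.22. The authors' values carry no scaling beyond TPM. Gene names, positions and isoform structures came from BDGP6.54, matched by identifier (17587 of 17714 genes).

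Counts were rounded and filtered with filterByExpr (minimum count and minimum total count 30), leaving 6857 genes in sorted and 8445 in unsorted embryos. The 15 sorted and the 12 unsorted libraries were each fitted in 1 model with edgeR 4.0.16 (R 4.3.3), quasi-likelihood test in the form before edgeR 4, TMM factors, and Benjamini-Hochberg adjustment over all genes tested. Following the study, Upf1-Nos libraries took factors from 20 control genes (1.26, 1.47 and 1.33), and the 276 genes called in Upf1 were left out of the counts for Upf1-Nos and Upf1-NosL7 against wild type (6581 genes). Isoforms were fitted alike. Scaled CPM use the same factors. TPM of Upf1-Nos carry no such factor.

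The study describes the sorted libraries as biological replicates. For the unsorted ones nothing in the sources used here says whether the 3 of a group came from separate collections, so their p-values measure the spread between these libraries, which may be technical. Same-numbered libraries had a correlation of deviations above 0.1, the minimum set for a pairing, in all 3 pairs only for *nos*- against wild type (correlation 0.151 to 0.488 at 0 to 1 hour and 0.111 to 0.467 at 2 to 3 hours). By that rule the number passed as a possible pairing there alone. At 0 to 1 hour *nos*- replicate 1 and wild-type replicate 2 also had a correlation of 0.312. The labels give only a number, so whether these libraries were collected as pairs is not known. The fits reported have no block and use no pairing, and the block was an alternative in every comparison. It gave each replicate number a shared effect over all libraries of an experiment. In unsorted embryos it thus also tied the stages, and it is not a test of the pairing alone. The code was tested on simulated data. Alternatives were DESeq2 1.42.0, RLE, total-count and control-gene scaling, other filters, the replicate block, the groups compared alone, isoforms, and leaving out each library.

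The 4 genes and all lists were chosen with earlier results of these data known. Named genes are the 4, their isoforms, *nos*, *Upf1*, *osk*, *hb* and *pum*, the 3 most similar genes, and for each list and direction the 2 called genes with the largest change. The other genes of the transport list and of its companion on translation are named so that those lists are complete, *galla-1* for its overlap with *exu*, and *cnc* and the exon junction genes after their values were seen.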

Additional observations from a re-analysis of the deposited data

Results flagged for a closer look

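The effect of *nos*- differed between the stages for 2 of the 4 genes, by the test of the difference itself. For *exu* it was larger at 2 to 3 hours than at 0 to 1 hour by 1.86 on the log2 scale (adjusted p 0.00162 by edgeR's quasi-likelihood test), and the value lay between 1.72 and 2.29 under all 22 alternatives, called in each. For *swa* it was larger by 0.93 (adjusted p 0.0474), at the edge of the threshold, and only 9 of 22 alternatives kept the call, with 9 of the 12 fits that left out 1 library losing it (adjusted p up to 0.0989). Groups of 3 libraries are too small for the test of single outlying libraries.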

How the results depend on the processing

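Over the 36 fitted changes of the 4 genes, 582 of 632 alternatives kept direction and call. No called value changed sign. Under other scalings *stau* in Upf1-Nos was called (1.05 with DESeq2 and with RLE, 1.03 with TMM alone). With factors from 20 control genes *bcd* between stages was called at −1.34 and *stau* was at −0.55, 0.0217 in *nos*- at 2 to 3 hours and 0.16 in the interaction. *stau* against Upf1-NosL7 lost its call as its main isoform (0.96). The *swa* interaction lost its call with the default filter (0.94), no filter (0.94), the main isoform (0.95) and an adjusted p of 0.01 (0.93). Signs of small uncalled values turned for *swa* in Upf1-NosL7 (no filter 0.0274, DESeq2 0.0064, RLE 0.0062, isoform 0.0435, groups compared alone 0.0528) and in *nos*- at 0 to 1 hour for *exu* (default filter 0.0075, no filter 0.0108, isoform 0.0034), *bcd* (DESeq2 −0.0155, RLE −0.0157, total counts −0.064, control genes −0.18, groups compared alone −0.0282), *swa* (−0.0371, −0.15 and −0.0014 under the last 3 of these) and *stau* (total counts −0.0229, control genes −0.14, isoform −0.21). The cause was not tested.

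Genes called numbered 678 in Nos and 328 in Upf1-NosL7 with no filter (384 and 180 in the fits reported), 95 in Upf1-NosL7, 962 in *nos*- at 0 to 1 hour and 1330 in the interaction at an adjusted p of 0.01 (1493 and 2804 in the fits reported), and 895 in *nos*- at 0 to 1 hour with the groups compared alone. Leaving out 1 library gave 238 to 496 genes called in Upf1, 91 to 408 in Upf1-NosL7 and 1637 to 2973 in the interaction, and the counts moved by over 1.5 times in Upf1 without wild-type replicate 3 (496) or Upf1 replicate 1 (417), in Upf1-NosL7 without wild-type replicate 1 (408) or 3 (91) or Upf1-NosL7 replicate 2 (104) or 3 (113), and in the interaction without wild-type replicate 2 (1744) or *nos*- replicate 1 (1637) of 2 to 3 hours. For the 4 genes it gave −1.01 to −0.50 (*stau* in Upf1-NosL7), −0.35 to 0.0035 (*exu* in Upf1), −0.28 to 0.11 (*exu* in Nos), −0.053 to 0.23 (*bcd* in Upf1-NosL7), −0.0604 to 0.0235 (*swa* in Upf1-NosL7), −0.0599 to 0.0796 (*exu* in *nos*- at 0 to 1 hour), −0.0062 to 0.16 (*swa* there) and 0.86 to 1.26 (*swa* interaction). Many values that were not called and stayed so moved by over 1.5 times, among them those of *bcd* in *nos*- at 2 to 3 hours (0.0471 without wild-type replicate 3 and 0.45, adjusted p 0.0237, without wild-type replicate 1), of *stau* in Upf1-Nos (0.23 without wild-type replicate 1 and 0.82, adjusted p 0.00736, without wild-type replicate 3), of *stau* in Upf1 (0.31 without Upf1 replicate 3), and of *bcd* between stages (−0.80 without wild-type replicate 1 of 2 to 3 hours).

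With the replicate number as a block, no call of the 4 genes changed. The block turned the sign of *exu* in *nos*- at 0 to 1 hour, to 0.0027. It gave 1647 genes called in *nos*- at 0 to 1 hour and 2540 at the later stage. In the other comparisons the number did not pass the rule for a pairing. Of the 3 most similar genes, a correlation over 9 group means of log2(TPM + 1) or log2(TPM + 0.1) kept 0 for *bcd* and *swa* and 1 for *exu* and *stau*. The counts of 3′ UTR motifs that were planned were not run, as no genome sequence was used here.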
